A study of Homo sapiens with 10 samples.

Results

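The 42 genes described here act in mitosis and include KIF18A, a kinesin motor gene that the study assigned to a YAP-bound enhancer. They were chosen by gene name for their known part in mitosis. No measured value entered the rule, but earlier results of these data were known when the choice was made. Of the 42, 41 were found by symbol among the 60168 genes of the deposited data, and 1, KIF23, was found by its gene ID, since the files list that ID under a clone-based name. All 42 passed the filter on low counts, which kept 15768 genes.

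The libraries were made from poly(A) RNA of MCF10A, a line of human breast epithelial cells that does not form tumours, under 3 conditions. MCF10A-YAP5SA cells (libraries A and B) carried a vector for YAP5SA, a YAP mutant that kinases of the Hippo pathway can no longer switch off, MCF10A-TRAM2 cells (libraries A to D) carried a vector for TRAM2, a protein of the endoplasmic reticulum translocon, and control cells (libraries A to D) carried the empty vector. All cells were transduced, selected with antibiotic and harvested while still subconfluent, and no cell cycle arrest is named. By the study's cloning methods, YAP5SA was placed in a lentiviral plasmid whose name lists the human PGK and EF1 promoters, and TRAM2 in one whose name lists CMV and EF1, so the vectors of these groups differed. None of the sources used here names the libraries that came from separate cultures, and the submitters' design text gives 3 biological replicates per condition, so the p-values below measure the spread between these libraries, which may be technical.

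Mitosis separates the duplicated chromosomes. Cyclin B with the kinase CDK1 starts it, the spindle checkpoint holds anaphase back until every kinetochore is attached to spindle microtubules, and the anaphase-promoting complex (APC/C) then marks cyclin B and securin for destruction before the cell is cut apart in cytokinesis. KIF18A walks to the plus ends of kinetochore microtubules and dampens the movements of chromosomes as they line up. Many genes of this kind are transcribed late in the cell cycle through promoters that hold a CHR element (cell cycle genes homology region) and CCAAT boxes, the sites of NF-Y. In RNA from whole cultures, fewer cells in mitosis and less mRNA per mitotic cell cannot be told apart.

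Promoter windows from RefSeq (GRCh38.p14, from 250 bases before to 50 after the annotated start) matched 35 of the 42 genes. AURKA, FOXM1, BUB3, TTK, TPX2, BIRC5 and UBE2C had no match. Below, 4 windows are printed, 5′ to 3′ on the strand of the gene. KIF18A (chr11:28108107-28108406, minus strand) is shown as the gene the set was built around, CCNB2 (chr15:59104896-59105195, plus strand) as the window with the most CCAAT boxes among those printed, ANLN (chr7:36389612-36389911, plus strand) as the most abundant of these mRNAs, and CDC25B (chr20:3786701-3787000, plus strand) as the gene with the largest fall in MCF10A-YAP5SA. Capitals mark each match, on either strand, to the CHR element (TTTGAA or TTCGAA), the CCAAT box (CCAAT) or the core site of TEAD factors, the partners of YAP (GGAATG).
KIF18A: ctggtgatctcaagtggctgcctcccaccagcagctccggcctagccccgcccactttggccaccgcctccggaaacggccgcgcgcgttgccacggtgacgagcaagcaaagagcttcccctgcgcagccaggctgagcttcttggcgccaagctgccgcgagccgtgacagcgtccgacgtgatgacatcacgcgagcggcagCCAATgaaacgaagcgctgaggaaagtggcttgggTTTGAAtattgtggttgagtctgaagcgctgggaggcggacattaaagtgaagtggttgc
CCNB2: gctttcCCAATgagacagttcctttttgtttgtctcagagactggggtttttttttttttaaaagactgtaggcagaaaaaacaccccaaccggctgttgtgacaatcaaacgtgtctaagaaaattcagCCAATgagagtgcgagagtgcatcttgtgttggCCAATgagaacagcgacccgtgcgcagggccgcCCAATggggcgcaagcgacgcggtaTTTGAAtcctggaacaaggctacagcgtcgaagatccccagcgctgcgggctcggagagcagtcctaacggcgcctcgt
ANLN: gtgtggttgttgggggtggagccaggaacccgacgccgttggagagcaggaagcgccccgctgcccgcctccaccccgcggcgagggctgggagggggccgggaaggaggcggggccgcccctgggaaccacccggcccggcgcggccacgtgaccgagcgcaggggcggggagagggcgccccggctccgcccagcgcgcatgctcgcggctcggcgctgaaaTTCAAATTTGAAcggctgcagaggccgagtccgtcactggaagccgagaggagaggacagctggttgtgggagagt
CDC25B: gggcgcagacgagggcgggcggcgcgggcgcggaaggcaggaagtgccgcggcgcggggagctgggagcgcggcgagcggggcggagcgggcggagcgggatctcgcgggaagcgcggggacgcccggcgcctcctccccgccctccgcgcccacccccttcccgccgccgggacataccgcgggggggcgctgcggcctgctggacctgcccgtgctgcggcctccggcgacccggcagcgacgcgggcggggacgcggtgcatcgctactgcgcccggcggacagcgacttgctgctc
In the KIF18A window a CCAAT box began at position -45 and a CHR element at position -10, counted from the annotated start. The CCNB2 window held 4 CCAAT boxes and a CHR element at -29. ANLN had 2 adjoining CHR matches, on opposite strands, at -26 and -20, and CDC25B had none of the 3 motifs.

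Both kinds of cell cycle motif stood in most of the 35 windows. CHR letters were found in 26 of the 35 (74.3%), against 16.4% of all 35116 RefSeq windows of the same length. In 22 of those 26 the match lay within 50 bases of the start (84.6%), against 30.7% of all windows with a match. A CCAAT box was found in 27 of the 35 (77.1%), against 34.6% of all windows, and 2 or more of them in 16 (45.7%), against 10.8%. The TEAD letters stood in 5 of the 35 (14.3%), against 14% of all windows. These are matches of letters in a window, not binding sites. Any repeated windows of a gene were dropped for the 35 but not for the 35116, which were also not limited to expressed genes.

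The libraries differed in ways that bear on these genes. Control A differed from C, and B from D, by no more than the sampling noise of their counts (chi-square per degree of freedom 1.003 and 0.9993, against 1.157 to 1.24 for the other control pairs) and were summed as control 1 and control 2. With a wider choice of genes the value was 1.008 for A with C and 1.048 for B with D, the second of which was beyond the sampling noise. The 8 samples then held 12476913 to 21542139 counts. MCF10A-TRAM2 B stood apart from the other MCF10A-TRAM2 libraries, with 5.496 to 6.117 per degree of freedom against them, where the others gave 2.067 to 4.071. The deposited names held the number 5682 for libraries A and B, which include both MCF10A-YAP5SA libraries, and 5683 for C and D. These are called the first and the second run below, a reading that the sample labels do not give. The genes of the vectors were high where the labels place them: YAP1 had 337 and 342 CPM (counts scaled to library size) in MCF10A-YAP5SA, against 187 CPM in both controls, and TRAM2 had 390, 611, 250 and 460 CPM in the MCF10A-TRAM2 libraries by letter, against 28.4 and 28.9 CPM in control. TRAM2 was at 242 and 247 CPM in MCF10A-YAP5SA. At least 9 of 10 mammary epithelial markers were above 1 CPM in every sample of each group, the exception being TP63, at 0.119 ± 0.05 CPM in MCF10A-YAP5SA against 2.79 ± 0.45 CPM in control (SD, n = 2 each). Of the 10, 3 rose in MCF10A-YAP5SA against control, the keratins KRT8 (log2 fold change 0.96), KRT17 (0.73) and KRT18 (0.60), and 5 fell, TP63 (-4.45), EPCAM (-2.77), CDH1 (-1.97), KRT5 (-0.94) and ITGB4 (-0.48). Of 6 fibroblast markers none reached 1 CPM throughout a group, and their summed level was 0.841 to 0.929 CPM in MCF10A-YAP5SA, 0.207 to 0.596 in MCF10A-TRAM2 and 0.485 to 0.595 in control. The sum of 6 leukocyte markers was 49.5 to 55.2 CPM in MCF10A-YAP5SA, 36.4 to 47.8 in MCF10A-TRAM2 and 40.3 to 40.6 in control, with CD3E at 0, and that of 5 endothelial markers 2.94 in both MCF10A-YAP5SA libraries, 12 to 17.5 in MCF10A-TRAM2 and 9.7 to 10.6 in control, with VWF at 0. Their part in the results below was not tested.

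In MCF10A-YAP5SA cells the mitosis genes as a whole stayed near their level in control, while a few moved. BUB3, a spindle checkpoint protein, was called higher and CDC25B, a phosphatase that activates CDK1, was called lower, a call in edgeR needing both an adjusted p under 0.05 and a log2 fold change of more than 0.5 in either direction. These 2 of 42 are 4.76%, against 29.4% of all genes tested (15.3% higher and 14.1% lower). By the adjusted p alone 7 genes rose (BUB3, KIF23, ANLN, TOP2A, NUF2, AURKA and NDC80) and 3 fell (CDC25B, PLK1 and MAD2L1), or 23.8%, against 48.7% of all genes (24.4% in each direction). The median log2 fold change of the 42 was -0.01, against -0.009 over all genes, and 40 of the 42 lay within 0.5 of 0. The counts changed with the samples fitted. Without MCF10A-TRAM2 B, a library of neither group, 10 genes rose and 13 fell (background 52.5%), the further ones being KIF18A, PRC1 and CDC20 among the rises and CCNB1, CCNB2, CCNA2, BUB1B, KIF20A, KIF20B, NUSAP1, HMMR, DLGAP5 and PTTG1 among the falls. In a fit of only the MCF10A-YAP5SA and control samples 13 rose and 14 fell (background 59.5%). Within the first run 8 rose and 4 fell (background 47.3%). DESeq2 on the same samples gave 8 rises and 3 falls. These did not include NDC80 or MAD2L1, so some genes passed in DESeq2 that did not in edgeR. With an offset for transcript length 4 rose and 3 fell in edgeR. The shares of all genes in the DESeq2 and length-offset fits are not given here. PLK1, AURKA, MAD2L1 and NDC80 passed in none of the 4 fits that left out a MCF10A-YAP5SA library or a control sample, where 5 rose and 1 fell. BUB3 and CDC25B were the only calls in each of these fits.

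**Figure D1:**
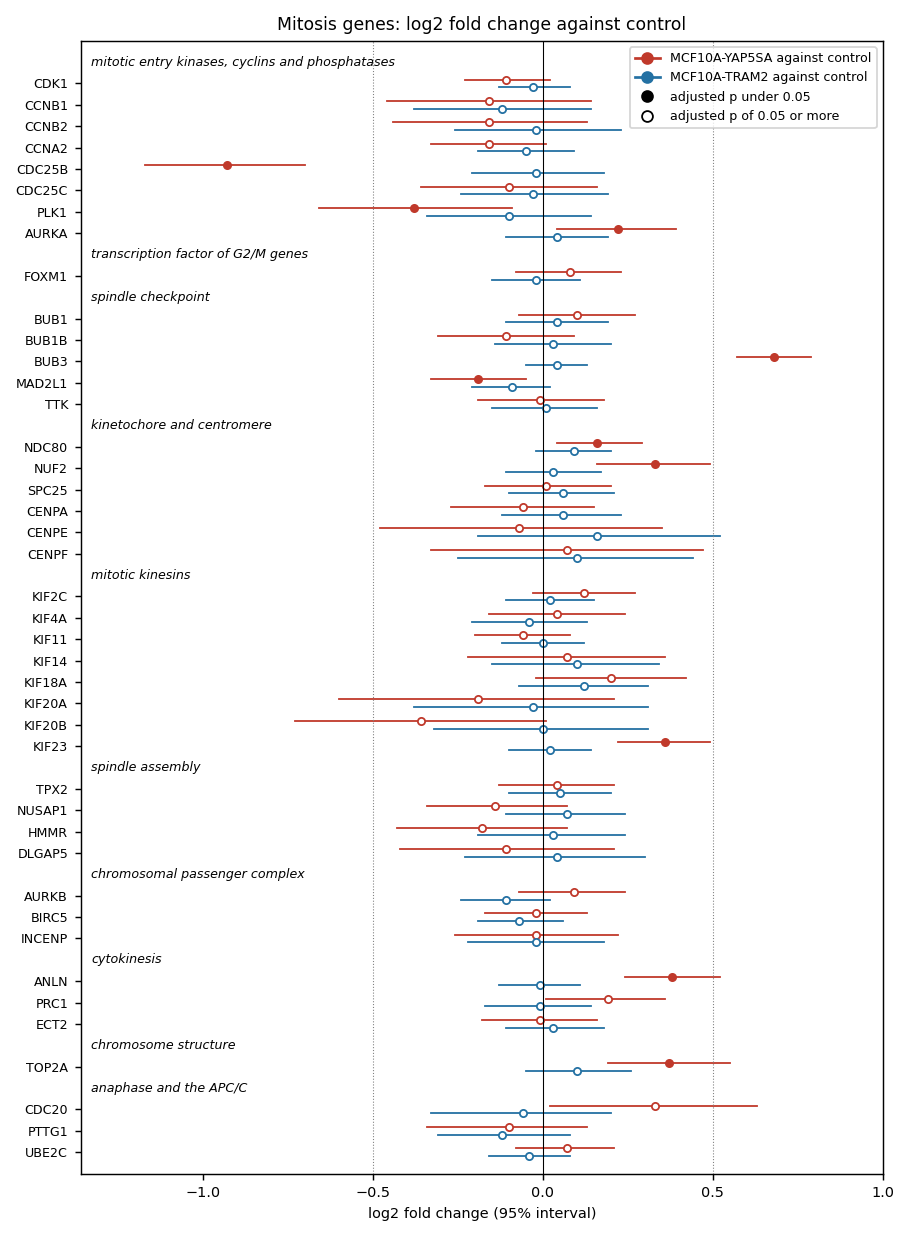
Log2 fold change of each of the 42 mitosis genes, by role, in MCF10A-YAP5SA against control (red) and MCF10A-TRAM2 against control (blue), with 95% intervals. Filled points have an adjusted p under 0.05, and dotted lines stand at 0.5 on either side of 0. BUB3 (0.68) and CDC25B (-0.93) lie outside these lines, and no blue point is filled.

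Of the 8 entry kinases, cyclins and phosphatases, 1 rose and 2 fell in MCF10A-YAP5SA. CDC25B had 97.4 and 96.0 CPM in MCF10A-YAP5SA A and B, 177, 157, 193 and 204 in the 4 MCF10A-TRAM2 libraries in order of their letters, and 185 and 184 in control 1 and 2. Both MCF10A-YAP5SA libraries lay far below every other sample, at 0.524 times the control level (log2 fold change -0.93 ± 0.10 SE, adjusted p = 4.4e-05 in edgeR). PLK1, a kinase of mitotic entry and spindle assembly, had 146 and 145 CPM in MCF10A-YAP5SA, 173, 146, 190 and 196 in MCF10A-TRAM2, and 189 in both controls. It fell in MCF10A-YAP5SA by 0.38 (SE 0.12, adjusted p = 0.036), to the level of MCF10A-TRAM2 B. AURKA, the centrosomal Aurora kinase, had 239 and 238 CPM in MCF10A-YAP5SA, 208, 185, 219 and 231 in MCF10A-TRAM2, and 205 and 206 in control. It rose by 0.22 (SE 0.08, adjusted p = 0.039), with both MCF10A-YAP5SA libraries above all others. The other 5, CDK1 and its regulators CCNB1, CCNB2, CCNA2 and CDC25C, had log2 fold changes of -0.16 to -0.10 and did not pass (adjusted p = 0.10 to 0.53). Without MCF10A-TRAM2 B the cyclins CCNB1, CCNB2 and CCNA2, each at -0.16, did (adjusted p = 0.0025, 0.025 and 0.0063).

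FOXM1, a transcription factor that drives many genes of late cell cycle, had 120 and 126 CPM in MCF10A-YAP5SA, 114, 104, 125 and 118 in MCF10A-TRAM2, and 117 and 116 in control. The difference of 0.08 ± 0.07 (SE) between MCF10A-YAP5SA and control did not pass (adjusted p = 0.40).

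The spindle checkpoint genes held the clearest rise. BUB3, which docks BUB1 and BUB1B at kinetochores, had 190 and 189 CPM in MCF10A-YAP5SA, 126, 119, 120 and 122 in MCF10A-TRAM2, and 119 and 117 in control. Its level in MCF10A-YAP5SA was 1.6 times that in control (log2 fold change 0.68 ± 0.05 SE, adjusted p = 4.5e-08), and no other sample came near it. MAD2L1, which binds CDC20 and so blocks the APC/C, had 111 CPM in both MCF10A-YAP5SA libraries, 123, 110, 125 and 117 in MCF10A-TRAM2, and 123 and 130 in control. It fell by 0.19 (SE 0.06, adjusted p = 0.025), to the level of MCF10A-TRAM2 B, and did not pass in DESeq2. BUB1, a checkpoint kinase, had 147 and 151 CPM in MCF10A-YAP5SA, 142, 125, 149 and 153 in MCF10A-TRAM2, and 135 and 142 in control, and did not pass (0.10 ± 0.08, adjusted p = 0.33). BUB1B and TTK, the other checkpoint kinases or kinase-like proteins, were at -0.11 and -0.01 and did not pass.

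Among the 6 kinetochore and centromere genes 2 rose in MCF10A-YAP5SA, and both encode parts of the NDC80 complex, which grips microtubules. NUF2 had 61.9 and 62 CPM in MCF10A-YAP5SA, 51.1, 45.0, 52.1 and 53.1 in MCF10A-TRAM2, and 48.5 and 50.4 in control. It rose by 0.33 (SE 0.08, adjusted p = 0.0026), with no overlap with another group in CPM. Scaled to transcript length (TPM), NUF2 was at 84.9 to 94.9 in MCF10A-YAP5SA. That lay inside the range of MCF10A-TRAM2 (52.4 to 105 TPM) and above control (65.1 to 71.0 TPM). NDC80 had 86.8 and 83.5 CPM in MCF10A-YAP5SA, 78.4, 78.5, 82.8 and 83.7 in MCF10A-TRAM2, and 74.5 and 77.5 in control. Its rise of 0.16 (SE 0.06, adjusted p = 0.032) did not pass in DESeq2, and MCF10A-YAP5SA B overlapped MCF10A-TRAM2 D. SPC25, of the same complex, was at 0.01 and did not pass. SPC24, also of this complex but counted in a further list, fell (-0.40, adjusted p = 0.00014 in edgeR), so the complex did not move as a whole. CENPA, the centromeric histone, had 42.4 and 40.6 CPM in MCF10A-YAP5SA, 39.9, 42.5, 47.2 and 50.3 in MCF10A-TRAM2, and 44.4 and 42.1 in control, so the groups overlapped. The motor CENPE and the large kinetochore protein CENPF were at -0.07 and 0.07, with the widest intervals of the 6 (-0.48 to 0.35 and -0.33 to 0.47).

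Of the 8 mitotic kinesins 1, KIF23, rose. KIF18A had 36.0 and 36.9 CPM in MCF10A-YAP5SA, 33.6, 29.4, 36.7 and 38.1 in MCF10A-TRAM2, and 31.3 and 32.3 in control. Both MCF10A-YAP5SA libraries lay above both controls and inside the range of MCF10A-TRAM2, and the log2 fold change against control, 0.20 ± 0.10 (SE), did not pass (adjusted p = 0.13, 95% interval -0.02 to 0.42). With other samples fitted the adjusted p was 0.036 without MCF10A-TRAM2 B, 0.014 in a fit of only the MCF10A-YAP5SA and control samples, and 0.12 within the first run. KIF23, a motor of the central spindle, had 309 and 306 CPM in MCF10A-YAP5SA, 252, 220, 254 and 248 in MCF10A-TRAM2, and 237 and 243 in control. It rose 1.28-fold (0.36 ± 0.06 SE, adjusted p = 3.0e-04), clear of all other samples. KIF20B, another kinesin of cytokinesis, had 207 and 208 CPM in MCF10A-YAP5SA, 278, 209, 285 and 294 in MCF10A-TRAM2, and 264 and 270 in control. MCF10A-TRAM2 B sat with MCF10A-YAP5SA and away from the rest, and the difference of -0.36 ± 0.15 (SE) did not pass (adjusted p = 0.097), while without that library it did (-0.37, adjusted p = 1.3e-06). KIF2C, KIF4A, KIF11, KIF14 and KIF20A were at -0.19 to 0.12 and did not pass, while without MCF10A-TRAM2 B KIF20A did (-0.20, adjusted p = 0.00067).

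At the level of single transcripts, 1 protein-coding isoform took 93.0% to 99.0% of the estimated KIF18A counts in the 10 libraries. In TPM (a transcript level scaled to length and depth) that isoform had 4.65 and 4.81 in MCF10A-YAP5SA A and B. It had 4.58, 3.87, 4.79 and 5.29 TPM in MCF10A-TRAM2 A to D, and 4.3, 4.46, 4.43 and 4.03 TPM in control A to D. Per length and summed over all transcripts of a gene, short retained-intron ones included, KIF18A was the least abundant of the 42 in each group. This summed level was 5.76 ± 0.04 TPM in MCF10A-YAP5SA (SD, n = 2), 5.41 ± 0.49 TPM in MCF10A-TRAM2 (n = 4) and 4.95 ± 0.28 TPM in control (n = 2). The next in this order, KIF14, had 6.03 ± 0.17 TPM in MCF10A-YAP5SA, 6.28 ± 0.79 TPM in MCF10A-TRAM2 and 5.85 ± 0.18 TPM in control, and the intervals of 1 SD around the levels of both genes overlapped in MCF10A-TRAM2 only. ANLN stood at the other end with a level of 922 ± 2.7 TPM in MCF10A-YAP5SA and 720 ± 1.3 TPM in control, followed in control by CDK1 (442 ± 1.3 TPM) and PRC1 (415 ± 14 TPM).

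**Figure D2:**
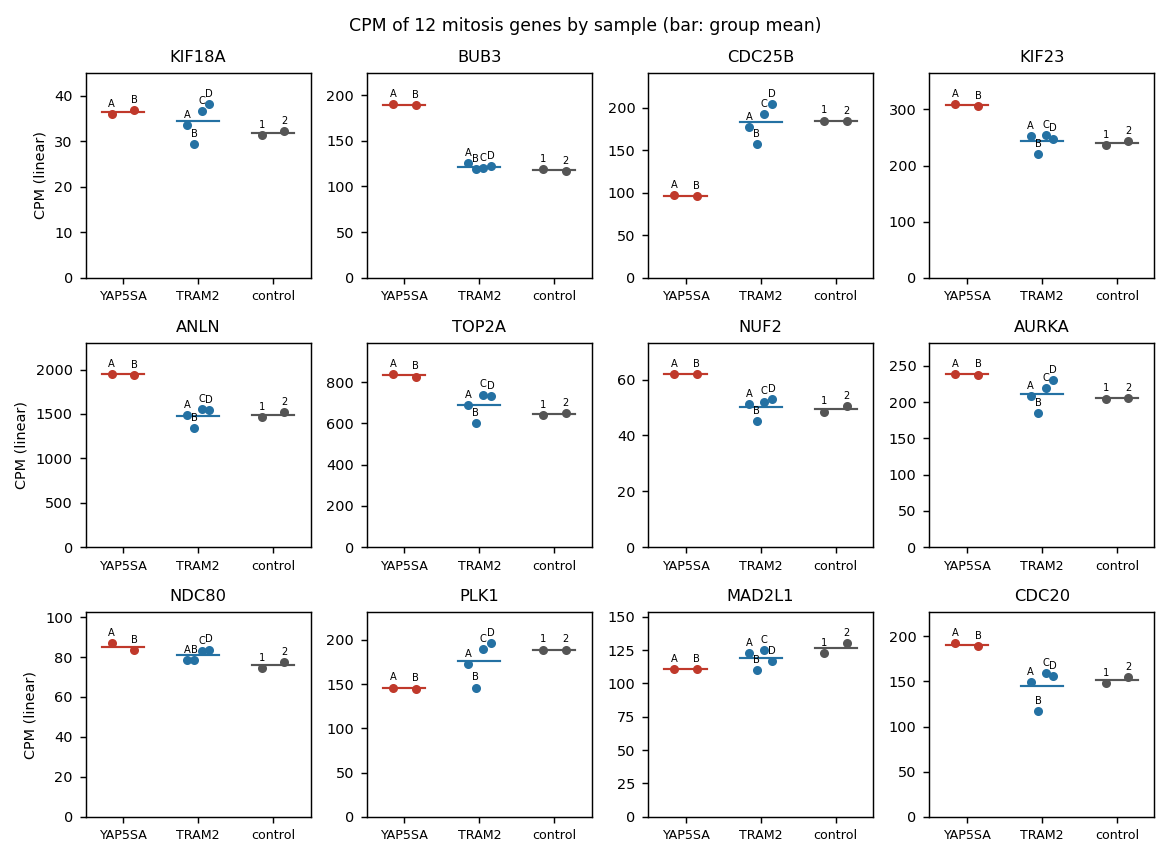
CPM of 12 mitosis genes (vertical axes, linear and from 0) in each MCF10A-YAP5SA, MCF10A-TRAM2 and control sample, with letters or numbers naming the sample and bars at the group means. BUB3 reads 190 and 189 CPM in MCF10A-YAP5SA against 119 and 117 CPM in control, CDC25B 97.4 and 96.0 against 185 and 184, and MCF10A-TRAM2 B is the lowest of its group in most panels.

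None of the 4 spindle assembly genes or the 3 genes of the chromosomal passenger complex passed. HMMR, a spindle protein, had 174 and 168 CPM in MCF10A-YAP5SA, 194, 166, 214 and 216 in MCF10A-TRAM2, and 196 and 192 in control. NUSAP1, which bundles microtubules, had 250 and 233 CPM in MCF10A-YAP5SA, 282, 240, 293 and 299 in MCF10A-TRAM2, and 269 and 262 in control. DLGAP5, a microtubule-stabilising protein, had 153 and 157 CPM in MCF10A-YAP5SA, 178, 137, 186 and 181 in MCF10A-TRAM2, and 167 and 166 in control. In these 3, which had the smallest p of the 4, both MCF10A-YAP5SA libraries were below both controls. MCF10A-TRAM2 B was within or below the range of MCF10A-YAP5SA for each. The log2 fold changes of the 3 were -0.18 ± 0.11, -0.14 ± 0.09 and -0.11 ± 0.13 (SE). Without MCF10A-TRAM2 B each passed (adjusted p = 0.0061, 0.014 and 0.041), where 52.5% of all genes passed. The share of all genes with both MCF10A-YAP5SA libraries below both controls was not computed. TPX2, the activator of AURKA, was at 0.04. AURKB, the kinase of the passenger complex, had 49.0 and 44.6 CPM in MCF10A-YAP5SA, 39.2, 40.4, 42.9 and 40.5 in MCF10A-TRAM2, and 43.0 and 45.1 in control. BIRC5 (survivin), which targets the complex to centromeres, had 145 and 149 CPM in MCF10A-YAP5SA, 145, 128, 153 and 144 in MCF10A-TRAM2, and 149 and 150 in control. INCENP, its scaffold, had 156 and 150 CPM in MCF10A-YAP5SA, 159, 129, 169 and 155 in MCF10A-TRAM2, and 151 and 160 in control. MCF10A-YAP5SA and control met or overlapped for these 3 passenger genes, with log2 fold changes of 0.09, -0.02 and -0.02.

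Of the 3 cytokinesis genes 1 rose in MCF10A-YAP5SA, as did TOP2A. ANLN (anillin), which organises the contractile ring, had 1950 and 1940 CPM in MCF10A-YAP5SA, 1490, 1340, 1550 and 1540 in MCF10A-TRAM2, and 1460 and 1520 in control. It rose 1.30-fold (0.38 ± 0.07 SE, adjusted p = 2.0e-04), and the MCF10A-YAP5SA libraries overlapped none of the others. PRC1, which cross-links the central spindle, had 366 and 365 CPM in MCF10A-YAP5SA, 332, 276, 340 and 325 in MCF10A-TRAM2, and 324 and 319 in control, a difference of 0.19 ± 0.08 that missed the threshold (adjusted p = 0.079) although the groups did not overlap. ECT2, the exchange factor that activates RhoA at the cleavage site, had 183 and 185 CPM in MCF10A-YAP5SA, 191, 166, 195 and 204 in MCF10A-TRAM2, and 182 and 188 in control, and did not differ beyond that spread (-0.01 ± 0.08). TOP2A, the topoisomerase that untangles sister chromatids, had 839 and 826 CPM in MCF10A-YAP5SA, 690, 600, 739 and 731 in MCF10A-TRAM2, and 638 and 648 in control. It rose 1.29-fold (0.37 ± 0.08 SE, adjusted p = 0.0026), again with no overlap.

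None of the 3 genes of anaphase and the APC/C passed. CDC20, which activates the APC/C, had 192 and 189 CPM in MCF10A-YAP5SA, 149, 117, 159 and 156 in MCF10A-TRAM2, and 148 and 155 in control. The MCF10A-YAP5SA libraries were above all others, at 0.33 ± 0.13 over control (adjusted p = 0.075), and the gene passed without MCF10A-TRAM2 B (adjusted p = 1.3e-05) and within the first run (0.35, adjusted p = 0.021). PTTG1 (securin), which holds separase inactive, had 172 and 179 CPM in MCF10A-YAP5SA, 182, 145, 184 and 185 in MCF10A-TRAM2, and 188 and 189 in control. UBE2C, an E2 enzyme of the APC/C, had 95.9 and 92.1 CPM in MCF10A-YAP5SA, 87.7, 79.6, 91.6 and 90.8 in MCF10A-TRAM2, and 89.2 and 90.3 in control. Their log2 fold changes, -0.10 and 0.07, did not pass (adjusted p = 0.44 and 0.45).

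In MCF10A-TRAM2 cells none of the 42 mitosis genes passed the test against control, by edgeR or by DESeq2, where 0.146% of all genes passed and 0.0571% were called in edgeR. None had an unadjusted p under 0.05 in edgeR either, against 12.6% of all genes. The log2 fold changes ran from -0.12 (CCNB1) to 0.16 (CENPE) with a median of 0.00, and the 95% interval stayed within 0.5 of 0 for 41 of the 42, CENPE reaching 0.52. The 4 genes with the smallest p were NDC80 (0.09 ± 0.05 SE, adjusted p = 0.49), AURKB (-0.11 ± 0.06, adjusted p = 0.49), MAD2L1 (-0.09 ± 0.05, adjusted p = 0.51) and TOP2A (0.10 ± 0.07, adjusted p = 0.60). KIF18A was at 0.12 ± 0.09 (adjusted p = 0.61), with MCF10A-TRAM2 A, C and D above both controls and B below them. The 2 runs gave it different signs, -0.02 ± 0.09 in the first (adjusted p = 0.96) and 0.25 ± 0.08 in the second (adjusted p = 0.084).

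MCF10A-TRAM2 B carried most of the spread in this group. It was the lowest of the 4 MCF10A-TRAM2 libraries for 39 of the 42 genes (92.9%), against 30.0% of 15753 genes compared, and the lowest of all 8 samples for 32 (76.2%), against 12.4%. The exceptions within the group were NDC80, CENPA and AURKB, lowest in MCF10A-TRAM2 A. All 42 lay below the mean of the other 3 libraries in B, by a median of -0.25 on the log2 scale, where the median of all genes compared was 0.0. The summed level of the 42 was 9533 and 9466 CPM in MCF10A-YAP5SA, 9129, 7754, 9566 and 9479 in the MCF10A-TRAM2 libraries, and 8843 and 8989 in control, so B was the lowest of the 8, while its TRAM2 level was the highest (611 CPM, against 250 to 460 CPM in the other 3 MCF10A-TRAM2 libraries), and the part of that level was not tested. ANLN and TOP2A, which rose in MCF10A-YAP5SA, contribute the most counts to these sums. Some other lists of division genes were low in B as well, and some were not: 12 of 14 spindle pole and centrosome genes (85.7%), 15 of 18 cohesin and condensin genes (83.3%), 11 of 14 further entry genes (78.6%), 4 of 6 further spindle kinesins (66.7%), 19 of 34 further kinetochore and checkpoint genes (55.9%), 21 of 38 genes of DNA replication and S phase (55.3%) and 4 of 8 further cytokinesis genes (50%) were at their lowest among the MCF10A-TRAM2 libraries there. For the list of DREAM and MMB genes, which also holds NFYA, NFYB and NFYC, it was 5 of 15 (33.3%). For the APC/C genes it was 5 of 17 (29.4%), and both are near the share of all genes.

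Without MCF10A-TRAM2 B, 3 of the 42 rose in MCF10A-TRAM2 against control, CENPE (0.27, adjusted p = 0.01), CENPF (0.20, adjusted p = 0.0082) and TOP2A (0.16, adjusted p = 0.042), beside 1.3% of all genes that passed in that fit and 0.727% that rose. In the libraries of the second run, which do not include B, 8 rose and none fell, beside 3.36% of all genes that passed and 1.78% that rose: CENPE (0.32), CENPF (0.22), KIF14 (0.20), TOP2A (0.19), NUSAP1 (0.18), HMMR (0.17), AURKA (0.16) and TPX2 (0.15), with adjusted p-values of 0.00065 to 0.038. None of the 42 passed within the first run, which includes B, where 0.218% of all genes did. None of these differences reached 0.5.

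**Figure D3:**
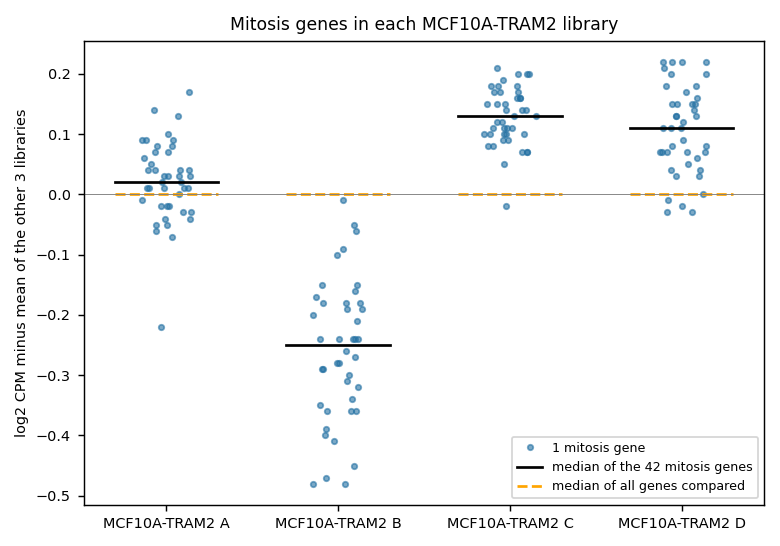
Difference of log2 CPM in each MCF10A-TRAM2 library from the mean of the other 3 libraries (vertical axis) for the 42 mitosis genes (blue points), with the median of the 42 (black) and of all genes compared (orange, dashed). All 42 points of library B are below 0, with a median of -0.25, whereas C and D have medians of 0.13 and 0.11.

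Set directly against MCF10A-TRAM2, MCF10A-YAP5SA showed the same 2 calls, BUB3 (0.64, adjusted p = 1.3e-08) and CDC25B (-0.92, adjusted p = 2.1e-05), where 29.4% of all genes were called. These values share the MCF10A-YAP5SA libraries with those against control. By the adjusted p alone 9 genes were higher and 1 was lower, where 51.2% of all genes passed. Beside BUB3 the 9 were ANLN (0.40), CDC20 (0.39), KIF23 (0.34), NUF2 (0.30), TOP2A (0.27), PRC1 (0.20), AURKB (0.20) and AURKA (0.18), with adjusted p-values of 3.2e-05 to 0.048. KIF18A was at 0.08 (adjusted p = 0.51). Without MCF10A-TRAM2 B the count became 9 higher and 15 lower (background 53.7%), with KIF20B (-0.46), PLK1 (-0.36) and CENPE (-0.34) among the lower ones.

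The other genes of division moved unevenly in MCF10A-YAP5SA against control, and 24.4% of all genes rose and 24.4% fell there by the adjusted p. Of 34 further kinetochore and checkpoint genes 10 rose and 7 fell, with a median log2 fold change of 0.00. CENPT, which links the NDC80 complex to centromeric chromatin, rose most by p (59.3 ± 3.3 CPM in MCF10A-YAP5SA against 29.8 ± 0.25 CPM in control, SD, n = 2 each, log2 fold change 0.99), MAD1L1, the partner of MAD2L1, rose by 0.42, and SPC24, the partner of SPC25, fell by 0.40. Of 8 further cytokinesis genes 3 rose and 1 fell: the non-muscle myosins MYH9 (0.95) and MYH10 (0.83) and the GTPase RHOA (0.39) rose, and CHMP4B, an ESCRT subunit of abscission, fell by 0.54. Without MCF10A-TRAM2 B 5 rose and 1 fell there. Cohesin and condensin genes had 0 rises and 7 falls of 18 (median -0.11), led by the cohesin regulator PDS5B (-0.51) and the cohesin subunits STAG2 (-0.34) and SMC1A (-0.25). Of 6 further spindle kinesins KIF2A rose by 0.23 and KIF22 fell by 0.37.

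Among 17 APC/C subunits and partners 2 rose and 3 fell, the first by p being the subunits ANAPC16 (-0.45), CDC16 (0.25) and CDC23 (-0.22). Of 14 spindle pole and centrosome genes 2 rose and 3 fell, where the centriole assembly genes SASS6 and CEP152 fell by 0.58 and 0.36 and CKAP2 rose by 0.20, and without MCF10A-TRAM2 B 5 rose and 3 fell. Of 14 further entry genes 3 rose and 4 fell. PKMYT1, a kinase that inhibits CDK1, and CDC25A, a phosphatase that activates CDKs, both fell by 0.56. CDCA8 (borealin), counted in this list although it belongs to the passenger complex, rose by 0.38. The list of 15 genes for the DREAM and MMB complexes, which repress or activate genes with CHR elements, also held NFYA, NFYB and NFYC of NF-Y. Of the 15, 3 rose and 7 fell (median -0.23). Among them were the pocket proteins RBL2 (-0.47) and RBL1 (-0.38), the E2F partner TFDP2 (0.62), and NFYB (0.40) and NFYC (-0.37). Of 38 genes of DNA replication and S phase 2 rose and 22 fell, with a median of -0.22 against -0.01 for the 42 mitosis genes. PCNA (-0.60), the sliding clamp, and MCM4 (-0.57), of the replicative helicase, fell, and TYMS (0.64), thymidylate synthase, rose. In MCF10A-TRAM2 none of the genes in these 9 lists passed against control in edgeR (in DESeq2 2 S phase genes fell, and without B in edgeR 2 S phase genes fell and 1 gene each of the cytokinesis and spindle pole lists rose). Of the 38 S phase genes 19 had an unadjusted p under 0.05 there (50%), against 12.6% of all genes, and 37 had a negative log2 fold change (97.4%), against 50.2% of all genes, with a median of -0.12.

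**Figure D4:**
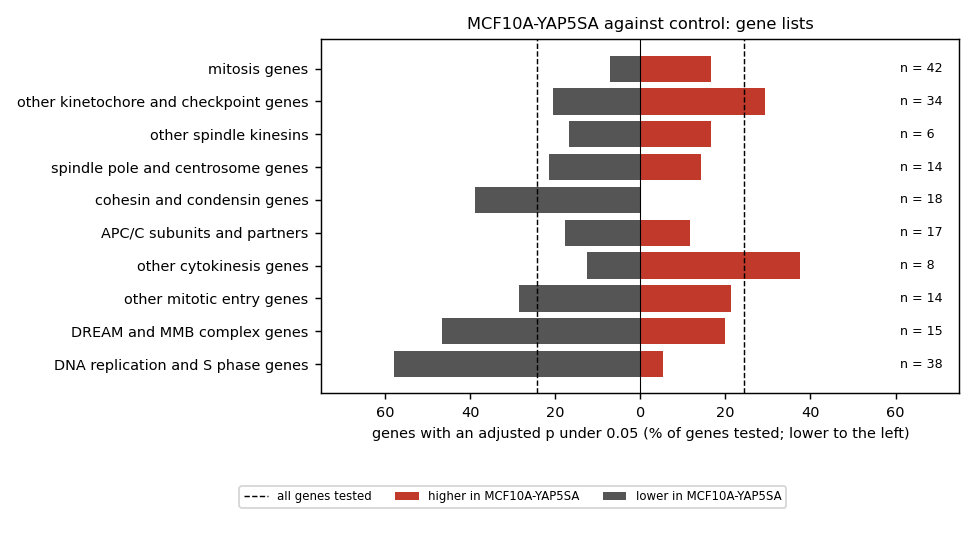
Share of each gene list, in percent of the genes tested, with an adjusted p under 0.05 in MCF10A-YAP5SA against control, higher to the right (red) and lower to the left (grey), with dashed lines at the share over all genes (24.4% on each side). The mitosis genes (7 higher and 3 lower of 42) lie inside both lines in this fit. The S phase (22 lower of 38) and DREAM and MMB genes (7 of 15, in a list that also holds NFYA, NFYB and NFYC) extend past the left one. So do the cohesin and condensin genes (7 of 18). The further cytokinesis genes (3 higher of 8) extend past the right one. The further entry genes (4 lower of 14) and kinetochore genes (10 higher of 34) pass a line by little and are near the share of all genes. In DESeq2, 3 of the 14 further entry genes were lower and 9 of the 34 kinetochore genes higher. Without MCF10A-TRAM2 B, 10 mitosis genes were higher and 13 lower (54.8%, against 52.5% of all genes). In that fit 3 S phase genes were higher and 23 lower, and 0 cohesin and condensin genes were higher and 8 lower.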

How the data were processed

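mRNA libraries of MCF10A cells with a YAP5SA vector (2), a TRAM2 vector (4) or an empty vector (4) were analysed. The authors removed adapters with cutadapt and quantified transcripts with Salmon, with versions, index and genome build not given in the sources used here. They deposited an estimated count and a TPM value for each transcript and library. Per the labels a TruSeq RNA kit was used, and per the study's methods a stranded one.

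Estimated counts were summed per gene and rounded, and control libraries that did not differ in a chi-square test (genes averaging 50 or more counts, all within 0.001 of whole numbers) were summed. Genes were filtered with filterByExpr, normalised by TMM and tested with edgeR 4.0.16 (quasi-likelihood, robust) under R 4.3.3, with the 8 samples fitted together and no covariates. Benjamini-Hochberg adjustment covered 15768 genes, and "rose" and "fell" stand for an adjusted p under 0.05. DESeq2 1.42.0 and the other alternatives are given with the closing section. CPM are counts scaled to TMM library sizes. Differences between MCF10A-TRAM2 libraries used log2(CPM + 0.5). Scripts were tested on simulated data in which 200 genes had known changes.

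The members, gene lists, tests and alternatives were chosen with earlier results of these data known, and counts by the adjusted p alone under the alternatives were added after seeing the data. All 42 genes are named. Values per sample are given for KIF18A, for up to 3 genes of each role with the smallest p in MCF10A-YAP5SA against control and for the 4 with the smallest p in MCF10A-TRAM2 against control, and of each further list up to 3 genes that passed. RHOA, TP63, NFYB, NFYC and the genes named for a fit without MCF10A-TRAM2 B or of 1 run fall outside these rules and were chosen after their values were seen. Transcript-level TPM were used for levels only.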

Additional observations from a re-analysis of the deposited data

Results flagged for a closer look

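In MCF10A-TRAM2 B, 3 of the 42 mitosis genes were flagged against the other 3 MCF10A-TRAM2 libraries by Dixon's test of the gap over the range. Chance flags about 1 in 20 groups, so 3 of 42 is near that share. The share over all genes was not computed. All 42 genes were low together in B, so the flags are not independent. CENPF had 469 CPM in B, against 647, 661 and 654 in A, C and D (gap over range 0.928). PTTG1 had 145 CPM in B, against 182, 184 and 185 (0.915), and KIF20A had 178 CPM, against 245, 255 and 247 (0.873).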

How the results depend on the processing

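BUB3 and CDC25B were called in MCF10A-YAP5SA, against control and against MCF10A-TRAM2, under every alternative run, with CDC20 added against MCF10A-TRAM2 within the first run (3 calls). With the adjusted p alone as the rule, 10 genes were called in each of the 2 comparisons. Against control, the number that passed was 16 with the replicate block, 27 with only the groups of the comparison, and 6 to 23 when 1 sample was left out, the 23 being without MCF10A-TRAM2 B and the 6 without either MCF10A-YAP5SA library or either control sample. Against MCF10A-TRAM2 it was 16 without a filter on low counts, and 5 to 24 when 1 sample was left out, the 5 being without MCF10A-YAP5SA A and the 24 without MCF10A-TRAM2 B. In MCF10A-TRAM2 against control it was 8 within the second run and 0 to 3 when 1 sample was left out, the 3 being without B. The cause of these changes was not tested.

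KIF18A in MCF10A-YAP5SA against control passed with the replicate block (0.27, adjusted p = 0.029), a fit of the 10 libraries as deposited in which the repeated control libraries count as 4, where the same libraries with no block gave 0.21 (adjusted p = 0.059), and with only the groups of the comparison (0.19, adjusted p = 0.014), and its value ran from 0.18 to 0.23 when 1 sample was left out. In MCF10A-TRAM2 against control it turned to -0.02 within the first run. Genes near 0 in MCF10A-YAP5SA against control changed sign. TTK turned to 0.00 with DESeq2, with DESeq2's size factors and with all 10 libraries kept apart, to 0.04 with the replicate block, 0.02 within the first run and 0.45 with a length offset. SPC25 turned to -0.04 without a filter and within the first run and to -0.08 with the length offset. With the replicate block CENPA turned to 0.03, CENPE to 0.02, BIRC5 to 0.02, INCENP to 0.04 and ECT2 to 0.04. CENPF turned to -0.01 with the length offset, and KIF4A and TPX2 to -0.01 without a filter. When 1 sample was left out, TTK ran from -0.10 to 0.10, SPC25 from -0.10 to 0.13, CENPE from -0.12 to 0.00, BIRC5 from -0.03 to 0.01, INCENP from -0.05 to 0.03 and ECT2 from -0.02 to 0.02.

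Library letters did not pair the samples, since deviations of libraries with the same letter correlated at -0.02 to 0.07, so the block is given here only. With 2 MCF10A-YAP5SA libraries, all from the first run, a run could not be separated from that group beyond the fit of the first run. The fits that leave out 1 of 2 samples take the lone sample to vary like the other groups.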
